A study of Mus musculus with 24 samples.

Results

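The genes described here were Ccr7, S1pr1, Il7r, Klf2, Foxo1, Lef1, Tcf7, Bach2 and Satb1, 9 genes that mark naive T cells by their quiescence, their homing to lymphoid tissue or their developmental state. They were taken by name, and their 12 probes were found among the 55681 probes of the array, on which 20028 genes had a name. Gene expression was measured on 24 two-colour arrays, 1 array for each condition, of which 14 held in vitro differentiated Th1 cells and 10 held Th2 cells from female C57BL/6 mice. RNA of these cells carried Cy3 and was hybridized against Cy5-labelled RNA of naive CD4+ T cells (CD25- and CD44lo), sorted from spleen and lymph nodes of the same strain and sex. Cells received DMSO, JQ1 at 50 or 500 nM, or flavopiridol at 1 or 10 µM, and were left unstimulated or were reactivated. Cells were treated for 6 hr. A 24 hr time point was added for Th1 cells under DMSO and 500 nM JQ1. For the Th2 DMSO arrays the labels gave both 6 and 24 hr, so their time is unclear and every Th2 drug effect below carries that doubt. JQ1 displaces BET proteins from acetylated chromatin. Flavopiridol inhibits P-TEFb, the kinase that releases paused RNA polymerase II into elongation.

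Naive T cells circulate between blood and lymphoid organs in a resting state. Foxo1 is held active in resting cells and drives Klf2 and Il7r, and Klf2 in turn drives S1pr1. S1pr1 is the sphingosine-1-phosphate receptor used to leave lymph nodes, Ccr7 is the chemokine receptor used to enter them, and Il7r is the receptor chain through which interleukin-7 keeps naive cells alive. Tcf7 and Lef1 encode the paired transcription factors TCF-1 and LEF-1 of the naive and memory state, Bach2 encodes a repressor of effector differentiation, and Satb1 encodes a chromatin organizer of the T lineage. Signalling through the T cell receptor is known to shut off several of these genes.

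The sequences upstream of Klf2, Foxo1 and Il7r are shown as those of the 2 genes that were higher and the 1 that changed most among those lower with 500 nM JQ1. Each run is the 250 bases before the annotated start in RefSeq (build GRCm38.p6), 5′ to 3′ on the strand of the gene, and capitals mark the CG dinucleotides.
Klf2 (chr8:72318812-72319061, + strand): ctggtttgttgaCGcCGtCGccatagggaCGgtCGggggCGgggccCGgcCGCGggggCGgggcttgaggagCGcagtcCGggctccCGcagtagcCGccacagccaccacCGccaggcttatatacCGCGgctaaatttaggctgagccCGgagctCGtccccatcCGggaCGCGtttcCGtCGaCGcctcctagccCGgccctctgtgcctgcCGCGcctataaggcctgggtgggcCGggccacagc
Foxo1 (chr3:52268087-52268336, + strand): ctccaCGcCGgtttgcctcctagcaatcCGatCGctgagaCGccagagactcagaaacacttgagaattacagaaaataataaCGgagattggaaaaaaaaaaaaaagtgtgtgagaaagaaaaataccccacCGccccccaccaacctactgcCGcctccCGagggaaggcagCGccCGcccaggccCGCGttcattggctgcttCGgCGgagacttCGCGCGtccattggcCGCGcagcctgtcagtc
Il7r (chr15:9529877-9530126, - strand): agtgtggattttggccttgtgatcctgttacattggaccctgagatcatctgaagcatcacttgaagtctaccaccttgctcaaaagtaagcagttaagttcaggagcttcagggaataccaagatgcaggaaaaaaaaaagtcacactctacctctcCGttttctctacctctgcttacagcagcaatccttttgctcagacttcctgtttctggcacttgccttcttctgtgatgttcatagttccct
The Klf2 window held 29 CG dinucleotides and 71.2% G+C, the Foxo1 window 20 and 56%, and the Il7r window 1 and 44%. CG content did not follow these directions over all members, since the windows of Tcf7, which was also lower with JQ1, held 37 and 15 CG dinucleotides, and those of Lef1 5 to 14. Over all 32851 windows of this length the medians were 6 CG dinucleotides and 52.4% G+C, and 93.2% of windows held fewer CG dinucleotides than that of Klf2. RefSeq windows were at hand for 7 of the 9 genes, 15 windows in all. Searched on both strands, the FOXO motif GTAAACA was in 0 of these 15 windows and in 3.17% of all windows, and the TCF/LEF motif ATCAAAG was in 0 of 15 and in 3.21%. The KLF motif CCACACCC was in 1 of 15, a Tcf7 window, against 3.2% of all windows. The ETS motif CCGGAAG was in 2 of 15, one of Tcf7 and one of Bach2, against 6.91%. These counts describe letters within 250 bases only.

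All values are log2 ratios of sample over naive RNA after loess, a correction that brings most genes of an array close to 0, so that each value is relative to most genes. Because 1 array stood for each condition, arrays of different cells, times or doses served in place of replicates, and p-values measure the spread between those contexts. They were adjusted by Benjamini-Hochberg over all genes tested, with a call at an adjusted p below 0.05 by limma. In bulk RNA, fewer cells of a type and less RNA per cell cannot be told apart. The share of probes well above background ranged over the arrays from 35.4% to 52.0% in Cy3 and from 48.1% to 53.8% in Cy5. The 9 genes were well above background in both channels on 24 of 24 arrays, except that the Cy3 signal of Klf2 was not on 1, that of reactivated Th1 cells with 10 µM flavopiridol. Their naive channel varied over the arrays by 0.28 (Foxo1) to 0.70 (Bach2). The arrays lay on 3 slides. Both arrays of every reactivation pair and of every Th1 JQ1 comparison shared a slide, whereas no flavopiridol array and no Th2 JQ1 array shared one with its DMSO control. T cell markers Cd3e, Cd3d, Cd3g, Cd4 and Cd28 were above background on all 24 arrays, and Klrb1c of NK cells on 0. Relative to naive cells Cd3e was at -2.03 to -0.49, Cd3d at -2.18 to -0.38 and Cd3g at -2.03 to -0.14. Cd4 was at -2.43 to -0.83 and Cd28 at -2.96 to 0.42. Of 4 myeloid markers, Csf1r and Itgam were above background on 24 arrays, Cd14 on 3 and Lyz2 on 0. The B cell markers Cd79b and Ms4a1 were above background on 21 and 20 arrays, with Ms4a1 at -0.29 to 4.03 relative to naive cells, and their part in the results was not tested.

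Reactivated Th2 arrays with DMSO or JQ1 went against their label in part. Tbx21, the Th1 master regulator, read 5.41 to 6.35 in Th1 cells with DMSO, -0.02 in unstimulated and 4.64 in reactivated Th2 cells. Il4, whose naive channel was well above background on only 2 of 24 arrays, read 3.52 in unstimulated and 8.02 in reactivated Th2 cells, and 3.07 and 4.50 in reactivated Th1 cells. Other markers kept to the labels in reactivated cells with DMSO. Gata3 read 2.64, Il5 3.66 and Il12rb2 -0.20 in Th2 cells, against -0.33, 0.46 and 0.98 in Th1 cells at 6 hr. Against the labels went Cxcr3, at 4.11 in those Th2 cells, and Il1rl1, at 3.91 against 5.51 in those Th1 cells. With JQ1 the reactivated Th2 arrays read 3.34 for Tbx21 and 5.70 for Ifng at 50 nM, and 0.94 and 4.79 at 500 nM, so that leaving out the DMSO array does not remove such RNA from the Th2 JQ1 comparisons. With flavopiridol they read 0.86 and 0.09 at 1 µM and -0.06 and -0.17 at 10 µM. The reactivated Th2 flavopiridol comparisons thus set arrays low in such RNA against a DMSO array that held it. Counts of the 9 genes without the reactivated Th2 cells are given below, and the counts of other gene lists were not recomputed without them.

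By its brightest probe and after loess, each of the 9 genes was below its naive level on 24 of 24 arrays. So were the T cell markers Cd3e, Cd3d, Cd3g and Cd4. The second probes of Bach2 and Foxo1 reached 0.46 and 0.11 above the naive level, while that of Tcf7 reached -0.75 at most. The depth of that loss differed widely between the genes and between the conditions. The lowest value was -7.26 for Klf2, 0.652% of the naive level, in unstimulated Th1 cells with 1 µM flavopiridol. The highest was -0.16 for Satb1, 89.3% of the naive level, in unstimulated Th1 cells with 50 nM JQ1. On that array the spike-in controls read -0.72, so the spike-in shift puts Satb1 and Ccr7 (-0.22) above the naive level there.

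**Figure D1:**
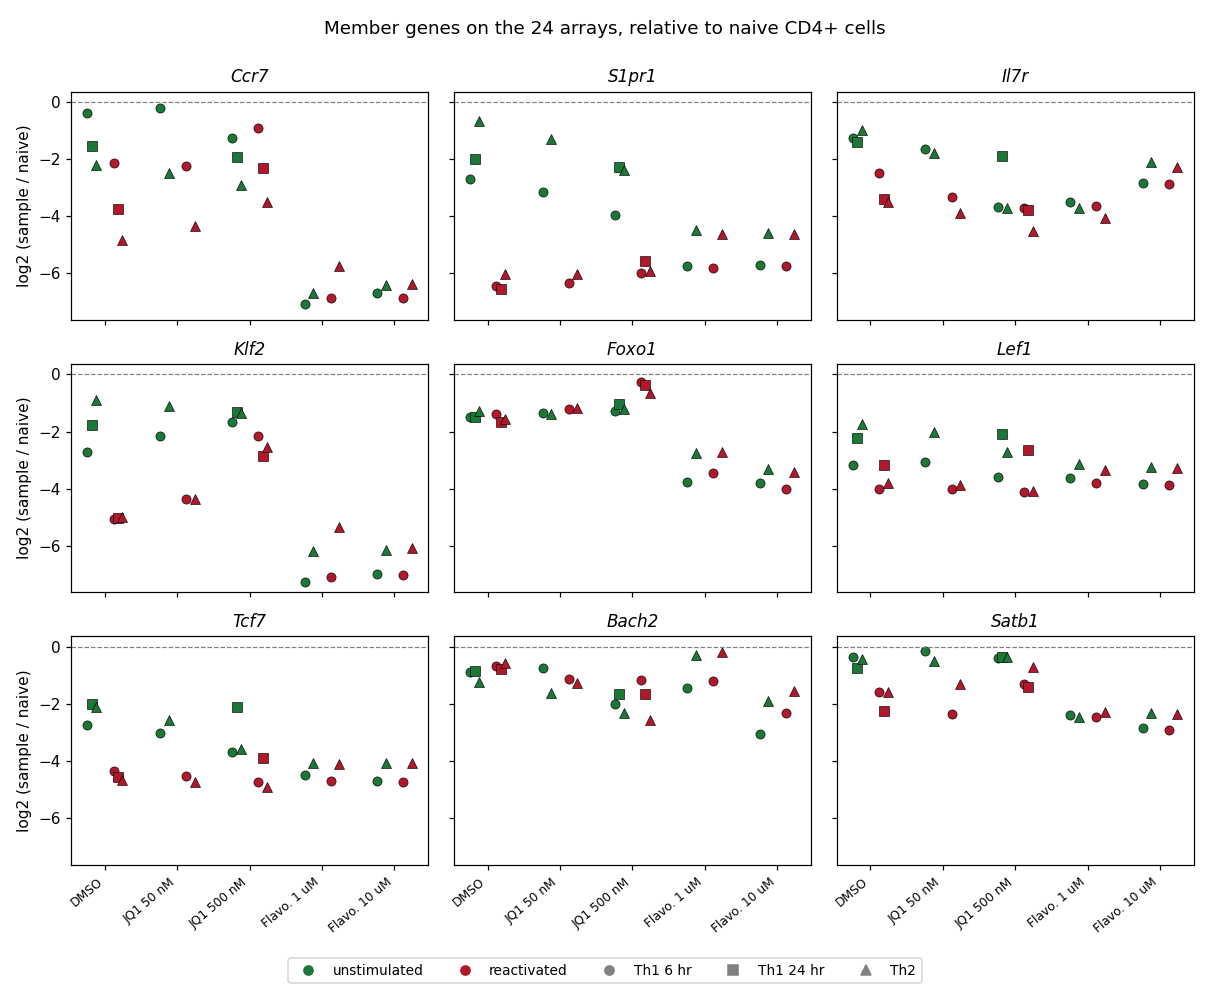
Log2 ratio to naive cells (y axis) of each gene on the 24 arrays, by treatment (x axis), with 1 point per array, colour for the state and symbol for the cells and time. All points lie below the dashed line at 0, which is the naive level, and the unstimulated and reactivated points that are apart with DMSO meet with flavopiridol for S1pr1, Klf2 and Tcf7.

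In unstimulated cells with DMSO, 8 of the 9 genes were lower than in naive cells, against 25.3% of all 12987 genes tested. Tcf7 and Lef1 lay lowest. Tcf7 read -2.72 in Th1 cells at 6 hr, -1.99 in Th1 cells at 24 hr and -2.09 in Th2 cells, a mean of -2.27 ± 0.15 (SE; adjusted p = 3.69e-05 by limma). Lef1 read -3.18, -2.22 and -1.72 in the same order, a mean of -2.37 ± 0.28 (adjusted p = 4.17e-04 by limma). By these probes the RNA of both was at or below 30.4% of the naive level on each of the 3 arrays, while the mean of both Tcf7 probes gave -1.68.

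Klf2 read -2.73, -1.78 and -0.89 in unstimulated Th1 cells at 6 hr, Th1 cells at 24 hr and Th2 cells. Its target S1pr1 ran alongside at -2.71, -2.001 and -0.68. Both were lowest in Th1 cells at 6 hr and highest in Th2 cells, and both had a mean of -1.80 (adjusted p = 0.00196 for Klf2 and 0.00362 for S1pr1 by limma). Foxo1 was nearly level across the 3 arrays, at -1.49, -1.48 and -1.29. Il7r was likewise within a narrow range, at -1.25, -1.38 and -0.97. Ccr7 also differed widely between contexts, at -0.38, -1.55 and -2.21, and its mean of -1.38 did not pass the threshold (adjusted p = 0.0541 by limma). Bach2 at -0.98 ± 0.10 and Satb1 at -0.51 ± 0.15 stood closest to naive cells, and both passed it. Satb1 lost its call with the spike-in shift (-0.20; adjusted p = 0.403 by limma) and in the authors' table (-0.44; adjusted p = 0.0612 by limma). Without the Th1 arrays of 6 hr Ccr7 was called lower (-1.88) and Satb1 was no longer called, and without those of 24 hr the call of S1pr1 was lost (adjusted p = 0.0565 by limma).

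In reactivated cells with DMSO all 9 genes were lower than in naive cells, against 33.4% of all genes, and 9 were called without the Th2 DMSO arrays too. Bach2 lost its call with the spike-in shift (-0.08; adjusted p = 0.641 by limma) and with the mean of its probes (-0.16; adjusted p = 0.244 by limma), which each left 8. S1pr1 lay lowest, at -6.43 in Th1 cells at 6 hr, -6.55 at 24 hr and -6.03 in Th2 cells, a mean of -6.34 ± 0.34 (SE). Klf2 read -5.06, -5.01 and -4.99, so that the 3 contexts that differed before reactivation were within 0.0759 of each other after it. The means were -4.52 for Tcf7, -3.65 for Lef1, -3.56 for Ccr7 and -3.13 for Il7r. Satb1 at -1.80, Foxo1 at -1.53 and Bach2 at -0.68 were the least reduced.

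Reactivation itself lowered 7 of the 9 genes, against 29.0% of all 12528 genes tested, and each of the 7 fell in 3 of 3 pairs of arrays. S1pr1 changed by -3.73 in Th1 cells at 6 hr, -4.55 in Th1 cells at 24 hr and -5.35 in Th2 cells, a mean of -4.54 ± 0.29 (SE; adjusted p = 2.28e-04 by limma), or 23.3-fold. Klf2 changed by -2.33, -3.24 and -4.10 in the same order, a mean of -3.22 ± 0.31 (adjusted p = 5.32e-04 by limma). For both genes the unstimulated and reactivated arrays did not overlap. The log2 Cy3 signal of S1pr1 on the reactivated arrays was low, at 6.93, 6.83 and 7.39, so its fold is not exact. With any 1 of the 3 pairs left out, that of Th2 cells included, 7 genes were called. The other receptors went the same way, with mean changes of -2.19 ± 0.18 for Ccr7 and -1.93 ± 0.25 for Il7r. Among the naive-state factors Tcf7 changed by -2.25 ± 0.21, Satb1 by -1.29 ± 0.13 and Lef1 by -1.28 ± 0.25.

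Foxo1 and Bach2 were not called on reactivation. Foxo1 changed by -0.11, with a 95% interval of -0.44 to 0.22, and fell in 2 of 3 pairs. Bach2 changed by 0.30, with an interval of -0.08 to 0.68, and was higher in 3 of 3 pairs. A second probe of Foxo1 followed the first over the 24 arrays (Pearson's r = 0.99), while the dimmer second probes of Bach2 (r = 0.59) and Tcf7 (r = 0.37) followed less closely. On reactivation the second probe of Bach2 changed by 1.01 and that of Tcf7 by -0.68, and with 10 µM flavopiridol they changed by -0.13 and 0.44, against -1.36 and -0.93 for the brighter probes.

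**Figure D2:**
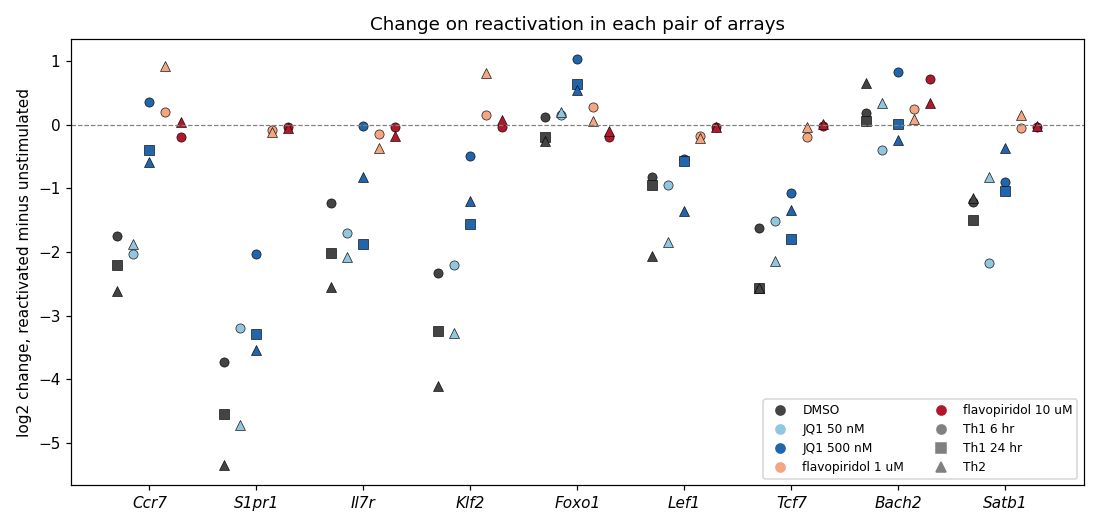
Log2 change on reactivation (y axis, reactivated minus unstimulated) of each gene (x axis) in each of the 12 pairs of arrays, with 1 point per pair, colour for the treatment and symbol for the cells and time. With DMSO S1pr1 changed by -5.35 to -3.73, with 500 nM JQ1 by -3.53 to -2.04, and with flavopiridol all its points lie near 0.

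With flavopiridol the change on reactivation was small for all genes. Over the 36 changes of 9 genes in 4 pairs the range was -0.36 to 0.93, and 33 of the 36 were within 0.5 of 0. For S1pr1 the 4 changes lay between -0.12 and -0.03 and for Tcf7 between -0.19 and 0.01. The 3 outside were Klf2 (0.82) and Ccr7 (0.93) in Th2 cells with 1 µM and Bach2 (0.72) in Th1 cells with 10 µM. For Bach2 the log2 Cy3 signal was 8.18 in unstimulated and 8.24 in reactivated cells. Its naive channel went from 11.22 to 10.56, so its change lay mostly in the reference. With 500 nM JQ1 the change of Klf2 was -0.49 to -1.56 over 3 pairs, against -2.33 to -4.10 with DMSO, and the 2 ranges did not overlap. Ccr7 changed by -0.58 to 0.37 with 500 nM JQ1, against -1.75 to -2.61 with DMSO. Foxo1 was higher after reactivation in all 3 pairs with 500 nM JQ1, by 0.54 to 1.03.

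Flavopiridol at 10 µM lowered 5 of the 9 genes over the 4 contexts of both cell types and states, against 33.5% of all 12429 genes tested. The drug comparisons here and below share the same DMSO arrays. Ccr7 fell furthest. Its 4 unstimulated arrays with either dose read -7.06 to -6.42 and its 4 reactivated ones -6.87 to -5.75, all below the lowest DMSO array at -4.81. The change at 10 µM was -4.21 ± 0.76 (SE; adjusted p = 0.00201 by limma). Klf2 changed by -3.14 ± 0.73 (adjusted p = 0.00725 by limma), and its 8 flavopiridol arrays, at -7.26 to -5.34, were also all below its lowest DMSO array at -5.06.

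Foxo1, which was not called on reactivation, changed by -2.20 ± 0.19 with 10 µM flavopiridol (adjusted p = 5.62e-05 by limma). Its 8 flavopiridol arrays read -3.99 to -2.71, and its 6 DMSO arrays -1.67 to -1.29. Satb1 changed by -1.61 ± 0.28 and Bach2 by -1.36 ± 0.26, each lower in 4 of 4 contexts. S1pr1 (-1.20, interval -3.23 to 0.84), Tcf7 (-0.93), Il7r (-0.46) and Lef1 (-0.38) were not called. Without reactivated Th2 cells Il7r (-1.03) and Tcf7 (-1.44) were called lower too. When each array was centred on its median in place of loess, or shifted by the spike-in controls, all 9 genes were called lower, while the median of all genes went from -0.22 to -1.05 and -1.35.

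At 1 µM 5 of the 9 genes were lower, against 35.4% of all genes. Ccr7 (-4.20), Klf2 (-3.05), Foxo1 (-1.75) and Satb1 (-1.40) were called at both doses. Il7r was called at 1 µM, at -1.67 ± 0.42, and Bach2 was not, at 0.06 with an interval of -0.54 to 0.66, although it was called lower with median centring (-1.07) and with the spike-in shift (-0.85). In every one of the 4 contexts Bach2 was lower at 10 than at 1 µM and Il7r higher, and these differences between doses were not tested. Without reactivated Th2 cells 6 genes were called at 1 µM. The call of Klf2 at this dose was lost without unstimulated Th1 cells (adjusted p = 0.053 by limma) and that of Il7r without unstimulated Th2 cells (adjusted p = 0.0609 by limma). No slide held a flavopiridol array and its control, so no value within a slide could be had, and with slide as a random block 5 members were called at each dose.

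JQ1 at 500 nM moved the genes in both directions at 6 hr. It lowered 4 of the 9, against 29.9% of all 12910 genes tested, and raised 2, against 17.7%. Il7r changed most among those that fell, by -1.85 ± 0.28 (SE; adjusted p = 3.97e-04 by limma). It changed by -2.44 in unstimulated and -1.22 in reactivated Th1 cells, and by -2.73 and -0.999 in Th2 cells. Bach2 changed by -1.16 ± 0.21, Tcf7 by -0.77 ± 0.17 and Lef1 by -0.46 ± 0.13, each in 4 of 4 contexts. The second probes changed by -0.63 for Bach2 and -0.24 for Tcf7. The call of Lef1 was lost without unstimulated Th2 cells (adjusted p = 0.0608 by limma).

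Klf2 was higher with 500 nM JQ1, by 1.49 ± 0.43 (adjusted p = 0.0156 by limma). The change was 2.91 in reactivated Th1 cells and 2.45 in reactivated Th2 cells, 1.07 in unstimulated Th1 cells and -0.46 in unstimulated Th2 cells. Reactivated cells read -2.15 and -2.54 with the drug, against -5.06 and -4.99 with DMSO. The calls of Klf2 and Foxo1 were lost without either reactivated context, with Klf2 at 1.02 without Th1 and 1.17 without Th2. Foxo1 was higher by 0.57 ± 0.16 in 4 of 4 contexts, and by 0.31 on its second probe, but with the spike-in shift, which moved the median of all genes to -0.64, it was at -0.00133 and its call was lost. Ccr7 (0.24, interval -0.58 to 1.06), Satb1 (0.30) and S1pr1 (-0.59) were not called.

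Within the slides, over the 4 Th1 pairs of 6 and 24 hr, Klf2 (1.65), Foxo1 (0.76), Il7r (-1.13) and Bach2 (-0.82) were called again. Tcf7 was at -0.20 there and Lef1 at 0.02, and neither was called. At 24 hr Klf2 with JQ1 was higher by 0.46 in unstimulated and 2.15 in reactivated Th1 cells, and the changes of Il7r were -0.503 and -0.36. At 50 nM 0 of the 9 genes were called by limma, of 0.341% of all genes, and 0 of the 9 had an unadjusted p below 0.05, against 1701 of all genes. The largest values at this dose were -0.60 for Il7r, with an interval of -1.23 to 0.02, and 0.42 for Klf2, with one of -0.53 to 1.38.

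**Figure D3:**
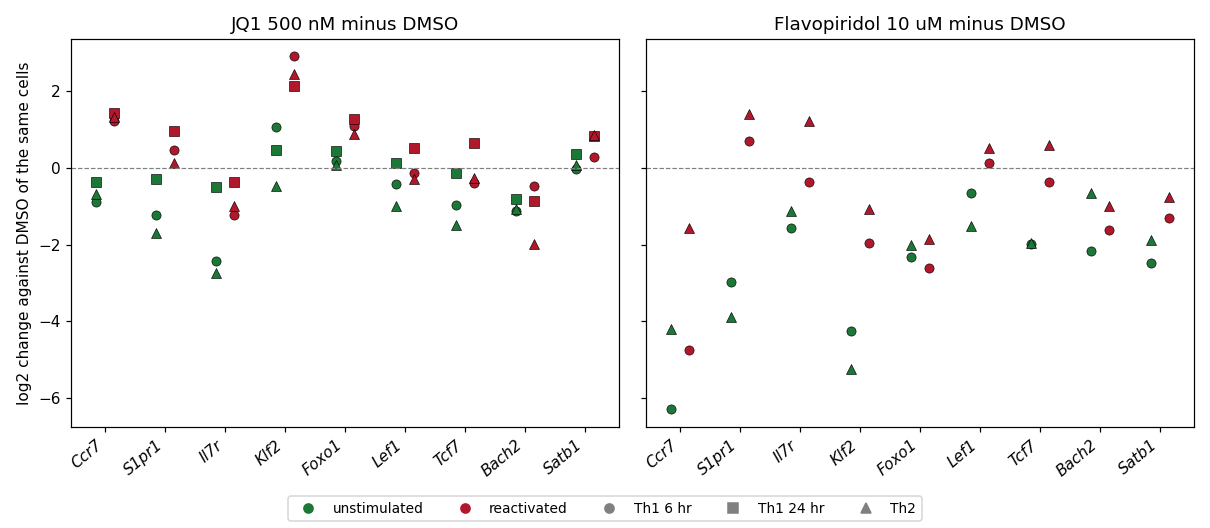
Log2 change against DMSO of the same cells and state (y axis), at the same time for Th1 cells and with the time of the DMSO arrays unclear for Th2 cells, of each gene (x axis) with 500 nM JQ1 (left) and 10 µM flavopiridol (right), with 1 point per context, colour for the state and symbol for the cells and time. Klf2 with JQ1 lies between 2.15 and 2.91 in the 3 reactivated contexts, and S1pr1 with flavopiridol is below 0 in unstimulated and above 0 in reactivated cells, where median centring and the spike-in shift put its mean at -0.16 and -0.17.

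The effect of JQ1 differed between the states, by the interaction of drug and state. For 6 of the 9 genes it was higher in reactivated cells, against 4.50% of all genes. Klf2 changed by 2.68 in reactivated and 0.30 in unstimulated cells, a difference of 2.38 ± 0.39 (SE; adjusted p = 0.00684 by limma). Ccr7 changed by 1.28 and -0.79, a difference of 2.07 ± 0.24 (adjusted p = 0.0018 by limma), and S1pr1 by 0.29 and -1.46, a difference of 1.75 ± 0.19 (adjusted p = 0.00133 by limma). In reactivated cells S1pr1 was at -0.18 with median centring and -0.88 with the spike-in shift, which put Ccr7 at 0.11. Il7r changed by -1.11 and -2.58, a difference of 1.47 ± 0.20. The differences were 0.90 for Tcf7 and 0.86 for Foxo1, which turned to -0.30 and -0.34 with the spike-in shift, when the median of all genes was at -1.21 and of the 6 genes only Klf2 was still called (1.18), while Bach2 was called in the other direction (-1.33). The call of Klf2 was lost without reactivated Th1 cells (adjusted p = 0.0578 by limma). Without reactivated Th2 cells 5 of the 9 genes were called. Within the slides Klf2 (1.76), Ccr7 (1.96) and S1pr1 (1.47) were called, and Il7r, Tcf7 and Foxo1 were not. At 24 hr Il7r read -1.88 with JQ1 and -1.38 with DMSO in unstimulated Th1 cells. In reactivated ones it read -3.76 and -3.40, so its effect differed little between the states at that time.

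The effect of flavopiridol also differed between the states, and for 5 of the 9 genes it was higher in reactivated cells, against 8.90% of all genes. The same 5 genes were called lower on reactivation with DMSO, on arrays used again here. With 10 µM the mean change on reactivation was -0.04 for S1pr1 and 0.01 for Klf2, against -4.54 and -3.22 with DMSO. The differences of these 5 genes therefore largely restate that fall. S1pr1 changed by -3.45 in unstimulated and 1.05 in reactivated cells, a difference of 4.50 ± 0.39 (adjusted p = 0.00202 by limma), but in reactivated cells it was at -0.16 with median centring and -0.17 with the spike-in shift. With the drug, after loess, S1pr1 read -5.82 to -4.48 over 8 arrays. That is above its reactivated DMSO arrays at -6.55 to -6.03, where its Cy3 signal was low, and below its unstimulated ones at -2.71 to -0.68. Klf2 changed by -4.75 and -1.52, a difference of 3.23 ± 0.55 (adjusted p = 0.0111 by limma). The differences were 2.09 for Tcf7, 1.41 for Lef1 and 1.15 for Satb1. Foxo1 changed by -2.17 in unstimulated and -2.23 in reactivated cells, a difference of -0.07 with an interval of -0.97 to 0.84. With the spike-in shift only S1pr1 (4.30) was still called, and 3 genes were with median centring and 2 with the scanner ratio. Without reactivated Th2 cells 3 of the 9 genes were called. Without unstimulated Th2 cells 0 of the 9 genes were called, and without unstimulated Th1 cells only S1pr1 was.

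Neither drug effect was called different between Th1 and Th2 cells for any of the 9 genes by limma. For flavopiridol 0.0161% of all genes were called, and 1 of the 9 genes, Bach2, had an unadjusted p below 0.05, against 1608 of all genes. For JQ1 the share of all genes was 0%, and 0 of the 9 genes had an unadjusted p below 0.05, against 907 of all genes. The intervals were wide, as for Klf2 with flavopiridol at -4.16 to 4.24.

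Th1 and Th2 cells without flavopiridol differed for 3 of the 9 genes over 6 pairs of arrays. Ccr7 was higher in Th1 cells, by 2.18 ± 0.14 (SE; adjusted p = 3.62e-05 by limma) and in 6 of 6 pairs, by 1.63 to 2.69, against 14.5% of all genes higher in Th1 cells. S1pr1 was lower in Th1 cells, by -1.04 ± 0.28, and Lef1 by -0.63 ± 0.19, each in 6 of 6 pairs, against 14.1% of all genes. For both, the pairs lay far apart in unstimulated cells (-2.03 to -1.57 for S1pr1) and close in reactivated cells (-0.41 to -0.07). Neither call held when an unstimulated pair was left out, of either JQ1 dose or of DMSO. Ccr7 was called when the DMSO arrays of unclear time were left out, and S1pr1 and Lef1 were not. With the flavopiridol arrays included, over 10 pairs, Ccr7 was at 1.09 and was not called (adjusted p = 0.0502 by limma). The JQ1 pairs of Th1 and Th2 cells were on different slides.

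At 24 hr against 6 hr in Th1 cells 1 gene was higher, against 2.38% of all 12533 genes tested, and 1 lower, against 2.90%. Lef1 was higher by 1.19 ± 0.14 in 4 of 4 pairs (0.83 to 1.501; adjusted p = 0.0099 by limma). Ccr7 was lower by -1.21 ± 0.16 in 4 of 4 pairs (-1.63 to -0.64; adjusted p = 0.0123 by limma). The 24 hr arrays were on a different slide from the 6 hr arrays they are compared with, so time and slide cannot be told apart, and neither gene was called without the unstimulated DMSO pair, with the spike-in shift, with the scanner ratio or with no term for condition.

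Over the 24 arrays the genes fell into groups by the likeness of their values, given as a description over arrays that share a reference and drugs. Klf2 and Satb1 had a Pearson's r of 0.93, as had S1pr1 and Tcf7. Lef1 was at 0.89 with Tcf7 and 0.87 with S1pr1, and Ccr7 was at 0.86 with Klf2 and with Foxo1. Without the flavopiridol arrays S1pr1 and Tcf7 were still at 0.93 over 16 arrays and Klf2 and Satb1 at 0.84, and Lef1 was at 0.88 with Tcf7 and 0.85 with S1pr1, whereas Ccr7 was at 0.51 with Klf2 and 0.13 with Foxo1. Bach2 was at -0.02 to 0.17 with the others over 24 arrays, but without flavopiridol it was at -0.52 with Klf2, -0.47 with Foxo1, 0.45 with Il7r and -0.39 with Satb1. Among 10118 other genes above background on at least 20 arrays, those most like S1pr1 were Evl (0.99) and Fam78a (0.98), and those most like Klf2 were Ubn1 (0.97) and Suox (0.96). Ccr7 was most like Dctn4 and Tnip1 (0.96 each), Foxo1 like Tbcc and Osbpl11 (0.97 each), and Satb1 like Cbx2 and Tmem59 (0.95 each). Tcf7 was most like Paqr7 and Nsd1 (0.94 each), Il7r like Ptpn6 (0.91) and Zfp787 (0.90), Lef1 like Itgb7 (0.90) and Klhl22 (0.89), and Bach2 like Lrch1 (0.79) and Zeb1 (0.73). Without the flavopiridol arrays these values were 0.78 for Foxo1 with Tbcc, 0.53 for Foxo1 with Osbpl11, 0.56 for Bach2 with Lrch1 and 0.39 for Bach2 with Zeb1, and the other genes named were at 0.86 to 0.99 with theirs.

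Other genes of naive cells were followed as lists. Their counts stand against the shares of all genes lower and higher, which were 25.3% and 32.4% in unstimulated and 33.4% and 37.9% in reactivated cells, 29.0% and 21.9% on reactivation, 29.9% and 17.7% with 500 nM JQ1, and 33.5% and 15.4% with 10 µM flavopiridol. Of 9 further trafficking genes, 6 were lower and 1 higher than naive in unstimulated cells (median -1.51, against 0.05 for all genes), where Klf3 was lowest (-2.30) and Cxcr4 highest (0.78). In reactivated cells 8 were lower and 0 higher (median -2.38, against 0.05), with Rasgrp2, an activator of integrin adhesion, at -4.49. On reactivation 6 fell and 0 rose (median -1.34, against -0.05), with Rasgrp2 at -2.43. With 500 nM JQ1 3 rose and 3 fell (median -0.01), with Itga6 at 1.15. With 10 µM flavopiridol 1 was called higher and 1 lower, with a median of -0.09 against -0.22 for all genes. The one called higher, Ccr9, was well above background on 0 of the 4 arrays with this dose, so no fold is given. The one called lower, Cd69 (-2.12), was so on 2 of the 4, both reactivated, so this is not an exact change.

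Of 23 further quiescence and naive-state genes, 16 were lower and 1 higher than naive in unstimulated cells (median -0.88), with Dapl1 at -4.98 and Tob1 at 0.42. In reactivated cells 17 were lower and 1 higher (median -1.57), with Nsg2 at -6.46 and Slfn2 at 1.62. On reactivation 10 fell and 4 rose (median -0.61), with Pik3ip1, an inhibitor of phosphoinositide 3-kinase, at -3.34 and Slfn2 at 1.92. With 500 nM JQ1 11 rose and 5 fell (median 0.20, against -0.07 for all genes), with Tob1, an inhibitor of T cell proliferation, at 2.02 and Cd27 at -1.23. With 10 µM flavopiridol 9 fell and 6 rose (median -0.43), against 33.5% of all genes lower and 15.4% higher, with Btg1 at -5.32 and Igfbp4 at 4.30.

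The effector genes ran the other way from the naive genes in the comparisons with naive cells. Of 14, 12 were higher and 0 lower in unstimulated cells (median 2.20), against 32.4% of all genes higher, from Prdm1 at 0.64 to Il2ra at 5.08. In reactivated cells 12 were higher and 0 lower (median 3.59), against 37.9% of all genes, from Batf at 1.05 to Ifng at 7.71. The naive channel of Ifng itself varied over the arrays by 5.32 and that of Il2ra by 2.63, so their ratios carry that spread. On reactivation 7 rose and 1 fell (median 0.68), against 21.9% of all genes higher, with Prdm1 at -0.51. Il4, the largest rise at 3.92, was well above background in 1 of 3 unstimulated arrays, so this is not an exact change. With 10 µM flavopiridol 7 fell and 2 rose (median -1.70), against 33.5% of all genes lower and 15.4% higher, with Id2 at -3.79 and Il2ra at 1.21. With 500 nM JQ1 8 fell and 0 rose (median -0.80), against 29.9% of all genes lower and 17.7% higher, from Irf4 at -0.53 to Cxcr3 at -2.57.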

How the data were processed

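Two-colour arrays were scanned by the authors with Agilent Feature Extraction 10.7.1.1, per the file headers, and the deposited spot intensity values (medians of Cy3 and Cy5 signal and local background) were used. The deposited scanner log10 ratio of Cy5 over Cy3 and the authors' log2 values of sample against naive RNA, whose normalization is not given in the sources used here, served as alternatives. The authors' values and those used here correlated at 0.981 to 0.996 on each array. Signals were background-corrected (normexp, offset 50) and loess-normalized within arrays in limma 3.58.1 (R 4.3.3), and the sign was turned to Cy3 over Cy5. Dyes were not swapped. Control spots and outlier flags were left out, and the brightest probe stood for a gene.

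A gene was tested when Cy3 passed the background flag on 3 or more arrays of the fit (either channel against naive cells). Fits were made with lmFit and eBayes, with the pair or context as a term, and the comparisons with naive cells tested the mean ratio against 0, which leaves out the spread of naive cells. Intervals are 95%. Fits were tested on simulated data. Named genes were the 9 genes, the 2 genes most like each, and of each list the called genes with the largest rise and fall. Prdm1, Batf and Irf4, each the smallest called change of the effector list in a comparison, were added after their values were seen. Some genes of the lists are not reported here by name. Members and lists were chosen with earlier results of these data known. Alternatives changed 1 choice at a time: background correction, normalization, scanner ratio, the authors' table, probes, filter, Cy3 alone, slide as a random block, fewer or more arrays, and each context left out.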

Additional observations from a re-analysis of the deposited data

Results flagged for a closer look

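Drug effects that differed between reactivated and unstimulated cells, by the interaction of drug and state in limma, drew attention for these genes. With 10 µM flavopiridol the effect in reactivated minus that in unstimulated cells was 4.50 ± 0.39 (SE) for S1pr1, 3.23 ± 0.55 for Klf2, 2.09 ± 0.35 for Tcf7, 1.41 ± 0.35 for Lef1 and 1.15 ± 0.30 for Satb1. With 500 nM JQ1 it was 2.38 ± 0.39 for Klf2, 2.07 ± 0.24 for Ccr7, 1.75 ± 0.19 for S1pr1, 1.47 ± 0.20 for Il7r, 0.90 ± 0.18 for Tcf7 and 0.86 ± 0.17 for Foxo1. Both sets of differences were measured on the same 4 DMSO arrays. Those with flavopiridol largely restate the fall on reactivation with DMSO, since the change on reactivation was small with that drug. The flavopiridol arrays and the Th2 JQ1 arrays were on other slides than their controls. With slide as a random block 7 members were called for flavopiridol and 6 for JQ1, whereas with the spike-in shift 1 and 2 were, and without unstimulated Th2 cells 0 and 4, and the Th1 JQ1 values within slides are given with the results. With 1 array for each condition, no group had enough arrays to look for a single array far from the others.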

How the results depend on the processing

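Over 1287 recomputed values of single members, 1151 kept their direction and their side of the threshold or stayed uncalled. Of the others, 98 kept the direction and lost the call, 32 gained one, and 6 changed sign with a call before or after. Changes of sign between uncalled values are among the 1151. Of the 6, the spike-in shift gave Bach2 with 1 µM flavopiridol (-0.85), Foxo1 with 500 nM JQ1 (-0.00133) and the JQ1 effect by state of Foxo1 (-0.34) and Tcf7 (-0.30). Median centring gave Bach2 with 1 µM flavopiridol (-1.07), and the values within slides gave Lef1 with JQ1 (0.022). The number of members called with 10 µM flavopiridol went from 5 to 9 with median centring or the spike-in shift, and with 1 µM from 5 to 9 with the shift. With 500 nM JQ1 it went from 6 to 3 over 8 arrays, with the other dose left out, or with Th1 contexts alone and to 1 with no term for context, and with 50 nM from 0 to 1 over 8 arrays. For the flavopiridol effect by state it went from 5 to 3 with median centring, 1 with the shift, and 2 with the scanner ratio or over 8 arrays. For the JQ1 effect by state it went from 6 to 2 with the shift and to 3 with the scanner ratio, over 8 arrays or within slides. For Th1 against Th2 it went from 3 to 1 with no term for condition or without the DMSO pairs, and for 24 against 6 hr from 2 to 0 with the shift, the scanner ratio or no term for condition. The cause of these moves was not tested.

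Leaving out each context gave 0 to 4 members for the flavopiridol effect by state (0 without unstimulated Th2, 1 without unstimulated Th1 and 3 without reactivated Th2 cells), 3 to 5 for the JQ1 effect by state (3 without reactivated Th1 cells), 1 to 4 for Th1 against Th2 (1 without either unstimulated JQ1 pair) and 0 to 3 for 24 against 6 hr (0 without the unstimulated DMSO pair). Values within slides and of Th1 contexts alone were chosen after seeing the data. Slide as a random block could not be fitted for reactivation, time and the drug effects by cell type. Signals near background limit Klf2 with flavopiridol. The log2 Cy3 signal of S1pr1 in reactivated cells with DMSO was also low, at 6.83 to 7.39, which limits its values there. With 1 array for each condition, every comparison is limited.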
